A study of Thermothelomyces thermophilus with 6 samples.

Results

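Carbon catabolite repressor cre-1 (Mycth_2310085), cellulase regulator clr-2 (Mycth_38704) and xylanase regulator xyr1 (Mycth_2310145) were followed in the thermophilic filamentous fungus Myceliophthora thermophila. The members were taken by gene ID for these functions, and they make up 3 of the 9110 genes in the table. The reference annotation gives each of them its locus tag alone, so their names come from the definition of the set and not from the deposited table. RNA was sequenced from strain ATCC 42464, for which the labels name no genetic change, in 3 media with 2 libraries each. Every culture was first grown in Vogel's salts with 2% glucose at 45 °C for 18 h, and the washed mycelium then spent 4 h without carbon, on glucose or on starch. The starch concentration in the test medium was 2%, while the protocol gives none for glucose. All groups therefore share the glucose preculture, and no library was taken before the shift. Library totals ran from 17726204 to 23635336 counted reads, and nothing in the labels tells whether the replicates of a medium were separate cultures. The p-values therefore rest on library-to-library spread that may be purely technical.

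As background, filamentous fungi control the secretion of polysaccharide-degrading enzymes at the level of transcription. The zinc finger protein CRE-1, called CreA in Aspergillus, binds promoters and lowers the transcription of genes for the use of other carbon sources while glucose is at hand. CLR-2 and XYR1 are activators with a binuclear zinc cluster. In Neurospora crassa CLR-2 is required for the cellulase genes on cellulose, and in Trichoderma reesei XYR1 is the main activator of xylanase and cellulase genes. Both activators are known mostly from growth on cellulose or xylan, which none of these media contained.

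The 3 regulators stood at very different levels. Levels between genes are given as TPM, a transcript share that divides reads by gene length and brings each library to the same sum. In cre-1 the level was 245 and 236 TPM without carbon, then 396 and 422 TPM on glucose, with 393 and 400 TPM on starch. The repressor gene thus ranked 631 without carbon, 408 on glucose and 421 on starch among all 9110 genes, and 94.9% of genes had a lower mean level over the 6 libraries. The activator genes lay in the lower part of the distribution. In clr-2 the level was 3.003 and 2.89 TPM without carbon, 7.11 and 7.32 TPM on glucose, and 7.29 and 8.003 TPM on starch, and 18.3% of genes had a lower mean. In xyr1 it was 10.2 and 9.06 TPM without carbon, 7.21 and 6.86 TPM on glucose, and 14.3 and 15.6 TPM on starch, and 26% of genes had a lower mean. On glucose the levels of clr-2 and xyr1 overlapped, whereas in the other media xyr1 exceeded clr-2 in both libraries.

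**Figure D1:**
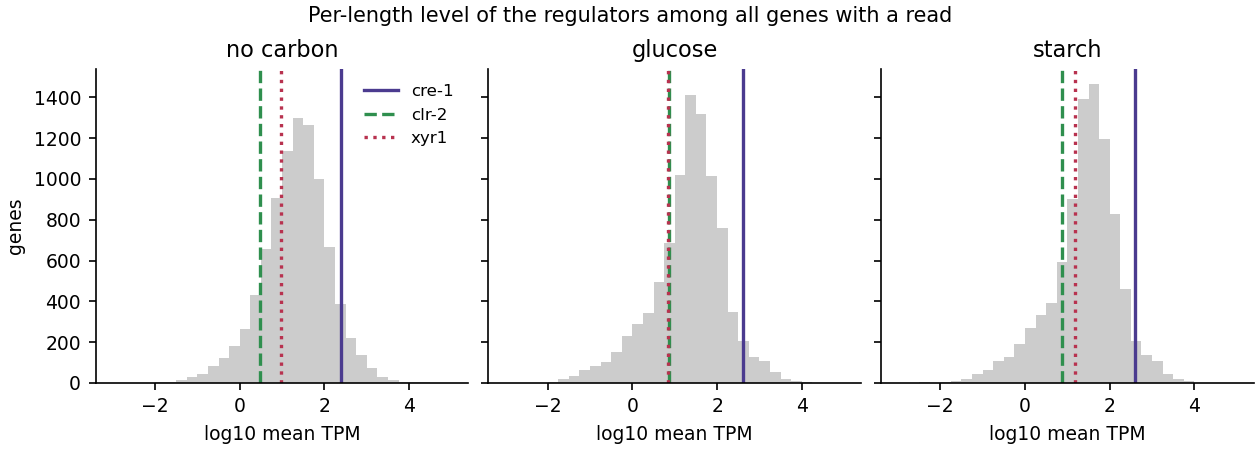
Histograms of the per-length level of all genes with at least 1 read (log10 of the mean TPM of 2 libraries on the horizontal axis, number of genes on the vertical axis) in the 3 media, with vertical lines for the regulators. The line of cre-1 (241 to 409 TPM) lies in the upper tail in each medium, and the lines of clr-2 and xyr1 coincide on glucose at 7.22 and 7.04 TPM.

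Changes between media were measured as CPM, reads per gene relative to the library's total, scaled by TMM factors, which align the bulk of genes between libraries. CPM is a share of the mycelium's messenger RNA, so fewer hyphal cells expressing a gene and less of its RNA per cell cannot be told apart. Genes were tested with edgeR's quasi-likelihood test, with p-values adjusted over all 8718 genes that had enough reads, and all 3 members were among these. The threshold for a call was an adjusted p of 0.05.

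The repressor gene cre-1 was highest on glucose, lower on starch and lowest without carbon. The libraries had 7286 and 5953 reads of cre-1 in starved mycelium, against 9055 and 11428 on glucose and 10055 and 10355 on starch. Scaled, these were 310 and 317 CPM without carbon, 513 and 536 CPM on glucose, and 430 and 434 CPM on starch. No 2 media overlapped on this scale. The rise from no carbon to glucose was 1.68-fold (log2 fold change 0.75, SE 0.025, adjusted p = 7.91e-31), and that from no carbon to starch was 1.38-fold (log2 fold change 0.46, SE 0.025, adjusted p = 1.92e-22). Starch was below glucose by 0.28 on the log2 scale (log2 fold change -0.28, SE 0.024, adjusted p = 1.54e-14), with a 95% confidence interval of -0.33 to -0.23. The sizes of the rises depended on the processing. With library totals in place of TMM factors, the log2 fold change against no carbon was 0.50 on glucose and 0.42 on starch. When the trend of counts with gene length was removed, it was 0.61 on glucose and 0.35 on starch.

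The size of the starch and glucose difference in cre-1 depended on the scaling too. With library totals in place of TMM factors it was -0.08 (adjusted p = 0.00546), because the TMM factors were 0.900 and 0.901 on glucose and 1.038 and 1.039 on starch. That choice moved the median log2 fold change of all tested genes from 0.04 to 0.24. Relative to the median of all genes, cre-1 stood at -0.32 under either scaling. A change of scaling moves all genes nearly alike, so this value could hardly differ and is no check of the difference. On the TPM scale given above, the starch values of cre-1 (393 and 400) overlapped the glucose values (396 and 422).

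The cellulase regulator gene clr-2 was lowest without carbon, and its difference between starch and glucose did not pass the test. Its reads were few, 140 and 114 in the starved libraries, against 255 and 310 on glucose and 292 and 324 on starch. These made 5.95 and 6.06 CPM without carbon, 14.5 and 14.6 CPM on glucose, and 12.5 and 13.6 CPM on starch. The fed libraries all lay more than 6 CPM above the starved ones. Starch lay below glucose in both libraries, so no 2 media overlapped in clr-2 either, although that difference did not pass the test. The exact 95% binomial intervals of the raw shares, which cover counting error only, were 5.30 to 7.73 CPM (by library totals) for the shallower starved library and 11.5 to 14.5 for the first starch library. The rise on glucose was 2.42-fold (log2 fold change 1.27, SE 0.12, adjusted p = 1.78e-13) and the rise on starch 2.17-fold (log2 fold change 1.12, SE 0.12, adjusted p = 7.01e-12). Starch against glucose gave a log2 fold change of -0.15 (SE 0.10, adjusted p = 0.179). Its 95% confidence interval ran from 0.778-fold to 1.04-fold, which does not show that the levels were alike, and with library totals as the scaling the sign turned to 0.05 (adjusted p = 0.674).

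The xylanase regulator gene xyr1 had the order starch, no carbon, glucose. It had 613 and 462 reads in the starved libraries, against 334 and 376 on glucose and 741 and 819 on starch. The scaled values were 26.1 and 24.6 CPM without carbon, 18.9 and 17.6 CPM on glucose, and 31.7 and 34.3 CPM on starch. Again no 2 media overlapped, but here glucose was the lowest. Starch exceeded glucose 1.81-fold (95% confidence interval 1.62 to 2.02, log2 fold change 0.85, SE 0.080, adjusted p = 3.04e-13). Glucose was below no carbon (log2 fold change -0.48, SE 0.084, adjusted p = 1.44e-06). Starch exceeded no carbon 1.30-fold (log2 fold change 0.38, SE 0.074, adjusted p = 8.53e-06), and this last call was lost when the trend of counts with gene length was removed.

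**Figure D2:**
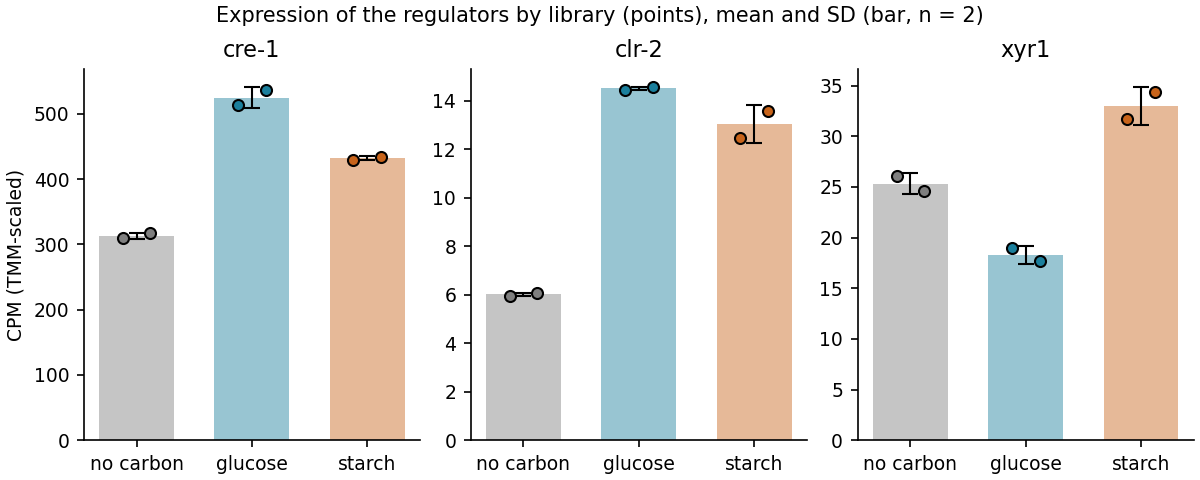
TMM-scaled CPM (vertical axes, starting at 0) of cre-1, clr-2 and xyr1 in each library (points) of the 3 media, with bars for the mean and error bars for the SD (n = 2). Mean values without carbon, on glucose and on starch were 313, 525 and 432 for cre-1, 6.01, 14.5 and 13.03 for clr-2, and 25.3, 18.3 and 33.0 for xyr1.

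Gene length moved with the comparisons against no carbon. The longest 10% of tested genes had a median log2 fold change of 0.54 on starch and 0.51 on glucose, and the shortest 10% had -1.06 and -1.22. Between starch and glucose the medians were 0.02 and 0.11. The model of cre-1 has 1531 bases, that of clr-2 2397 and that of xyr1 3099, against a median of 1569 among tested genes, and 89.6% of tested genes are shorter than xyr1. After removal of the length trend from each library, the difference of xyr1 between starch and no carbon turned to -0.11 and was not called (adjusted p = 0.154). Its difference between glucose and no carbon grew to -0.98 (adjusted p = 2.24e-15), and with library totals it was -0.72 (adjusted p = 5.08e-12). With the trend removed, the rise of clr-2 was 0.74 on starch (adjusted p = 2.1e-07) and 0.89 on glucose (adjusted p = 3.98e-09), and both calls held. The comparison of starch with glucose was then 0.87 for xyr1, -0.26 for cre-1 and -0.15 for clr-2. Whether the trend comes from the mycelium or from the libraries was not tested.

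Calls were common in these data. Between starch and no carbon, all 3 regulators were called, as were 90.0% of the 8718 tested genes. Between glucose and no carbon all 3 were called, beside 90.5% of tested genes. Between starch and glucose 2 of 3 were called, beside 68.6% of tested genes. The counts of regulators are thus near the background, and the sizes say more. When edgeR's glmTreat asked for a difference of more than 2-fold, none of the 3 regulators passed between starch and no carbon (background 39.4%), although all 3 passed the plain test there. None passed between starch and glucose (background 5.23%), where 2 of 3 passed the plain test. In both of these comparisons the count by glmTreat was also 0 at an unadjusted p under 0.05. Only clr-2 passed between glucose and no carbon (adjusted p = 0.00967, edgeR), beside 43.2% of tested genes. This call was lost with library totals (log2 fold change 1.02, adjusted p = 0.405), with upper quartile scaling (1.14, adjusted p = 0.102) and with the length trend removed (0.89, adjusted p = 1).

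By absolute log2 fold change, cre-1 exceeded 28.1% of tested genes between starch and no carbon, 40.5% between glucose and no carbon, and 46.0% between starch and glucose. For clr-2 the shares were 59.4%, 61.1% and 26.9% in the same order. For xyr1 they were 23.3%, 26.9% and 86.8%. The comparison of the fed media was thus where xyr1 stood out most among all genes and where clr-2 stood out least. These comparisons share libraries in pairs, and each value belongs to its own comparison.

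**Figure D3:**
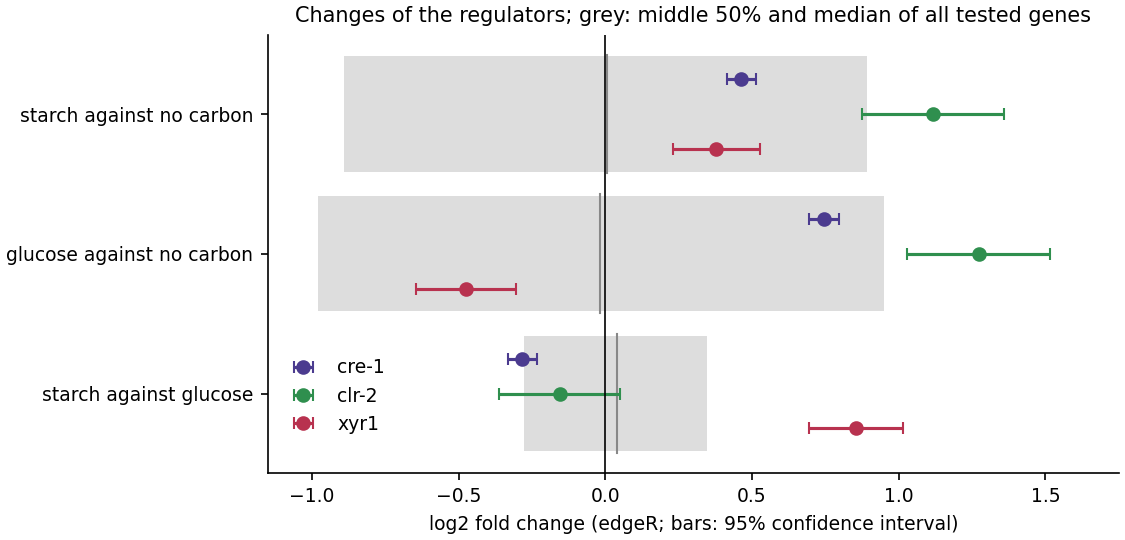
Log2 fold changes (horizontal axis) of the 3 regulators in the 3 comparisons, with 95% confidence intervals from edgeR; grey boxes span the middle 50% of all 8718 tested genes and grey lines mark their median. In the comparison of starch with glucose the interval of xyr1 (0.69 to 1.02) lies outside the grey box, and that of clr-2 (-0.36 to 0.05) spans 0.

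The balance between the regulators within a library does not depend on how libraries are scaled to each other. Per length, cre-1 exceeded xyr1 24.1 and 26.1 times without carbon, 54.9 and 61.5 times on glucose, and 27.5 and 25.6 times on starch. The ratio on glucose lay above both other media, which overlapped with each other. The ratio of cre-1 to clr-2 was 81.5 and 81.8 without carbon, 55.6 and 57.7 on glucose but 53.9 and 50.04 on starch. It was highest in starved mycelium, and the fed media did not overlap. Between the activator genes, the ratio of xyr1 to clr-2 was 3.39 and 3.13 without carbon, 1.01 and 0.938 on glucose, and 1.96 on both starch libraries. This ratio separated all 3 media. No test was run on the ratios, and the smallest two-sided p of an exact permutation test with 2 libraries against 2 is 0.333. The ratios show unequal change, not which gene changed. They do carry the length trend. With it removed, starch against no carbon was 0.35 for cre-1 and -0.11 for xyr1, so the overlap of these media in the ratio of cre-1 to xyr1 holds for values that keep the trend.

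**Figure D4:**
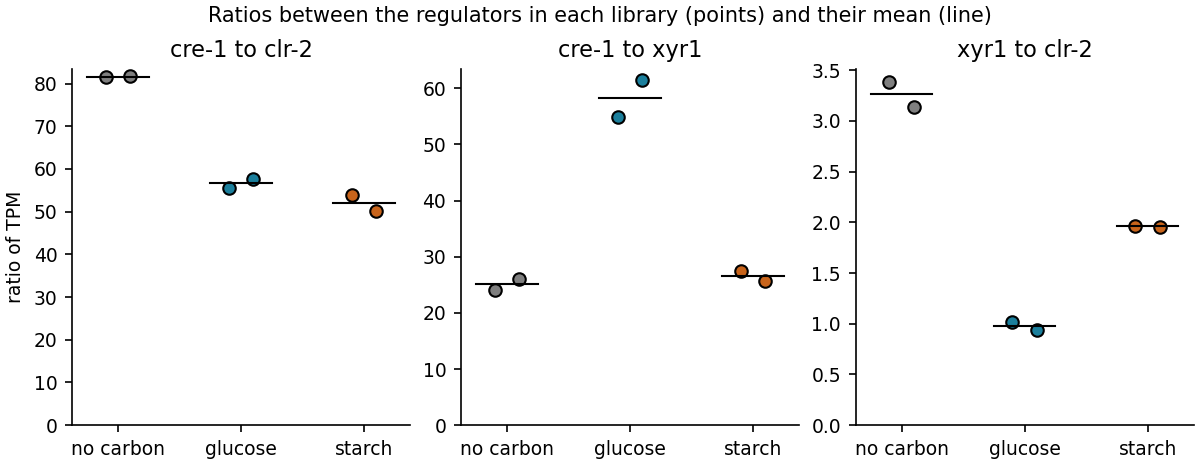
Ratios of TPM (vertical axes, starting at 0) between pairs of regulators in each library (points) and their mean of 2 libraries (lines) in the 3 media. The mean ratio of cre-1 to xyr1 is 58.2 on glucose against 25.1 and 26.5 in the other media, and that of xyr1 to clr-2 falls from 3.26 without carbon over 1.96 on starch to 0.976 on glucose.

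Replicate libraries differed little for these genes. The CPM of the pairs differed by 0.631% to 8.45% of their mean over the 9 combinations of gene and medium. In exact binomial tests on the reads of each pair, which compare those libraries and not the media, 1 of 9 exceeded counting error, cre-1 on glucose (4.37% difference, p = 0.00188, adjusted p = 0.0169). For clr-2 and xyr1 none of the 6 pairs did (adjusted p of 0.522 to 0.966). Their libraries held 114 to 819 reads, against 5953 to 11428 for cre-1, so a difference of the same percentage is harder to detect in them. The tests therefore do not show that their replicates agreed better. Gene-wise estimates of spread by edgeR, made before the quasi-likelihood fit behind the tests, were also taken. They gave a biological coefficient of variation of 1.74% for cre-1, 3.64% for clr-2 and 3.16% for xyr1.

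The annotation gives few genes a symbol of their own, and these were not chosen as targets of the regulators. The 6 genes with a symbol were gla1, cbdA, ganA, phy1, cat1 and lcc1, and all 6 were tested. Between starch and glucose, 4 were called higher and 1 lower on starch (background 36.1% and 32.5% of tested genes), with a median log2 fold change of 1.35 beside 0.04 for all tested genes. Between starch and no carbon 5 were higher and 1 lower on starch (background 45.3% and 44.7%, median 1.76 beside 0.01), and between glucose and no carbon 3 were higher and 3 lower on glucose (background 44.8% and 45.7%, median 0.73 beside -0.02). The cellobiose dehydrogenase gene cbdA, whose enzyme works in oxidative cellulose breakdown and whose counterpart in Neurospora crassa depends on CLR-2, had 7.69 ± 0.869 TPM without carbon, 5.29 ± 0.291 on glucose and 45.3 ± 0.715 on starch (mean ± SD, n = 2). Tested as CPM, cbdA on starch exceeded no carbon 4.91-fold (adjusted p = 8.71e-34, edgeR) and glucose 7.28-fold (adjusted p = 2.36e-35). The ratio of cbdA to clr-2 was 2.76 and 2.45 without carbon, 0.773 and 0.695 on glucose but 6.15 and 5.73 on starch.

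The ratio of cbdA to xyr1 differed little between glucose and no carbon. It was 0.816 and 0.780 without carbon, 0.763 and 0.741 on glucose but 3.13 and 2.93 on starch. Both genes were lower on glucose than without carbon, by a log2 fold change of -0.57 for cbdA (adjusted p = 2.6e-07, edgeR) and -0.48 for xyr1. For cbdA this was -0.82 with library totals and -1.01 with the length trend removed. For the glucoamylase gene gla1, whose enzyme releases glucose from starch, the ratio to cre-1 was 0.0207 and 0.0173 without carbon, 0.0701 and 0.0721 on glucose but 4.10 and 4.20 on starch. The glucoamylase gene exceeded the repressor gene in level on starch and lay below it in the other media.

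The genes most like each regulator were sought by the root mean square difference of log2 CPM over the 6 libraries, each gene centred on its mean, among 6966 other genes with at least 10 CPM on average and reads in every library. Closest to cre-1 were Mycth_2302243, Mycth_74487 and Mycth_2312771, at 0.021, 0.022 and 0.029. Closest to clr-2 were Mycth_2138951, Mycth_2114693 and Mycth_2079474, at 0.023, 0.030 and 0.032. Closest to xyr1 were Mycth_2310586, Mycth_2312668 and Mycth_2294307, at 0.060, 0.060 and 0.062. Fewer genes resembled xyr1, with 23 genes within 0.1, against 202 for cre-1 and 146 for clr-2. The replicate pairs of xyr1 also lay 5.92% to 8.06% apart, which adds to every distance from it. Between the regulators the same measure was 0.28 for cre-1 and clr-2, 0.56 for cre-1 and xyr1, and 0.72 for clr-2 and xyr1. The annotation gives these similar genes no name.

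**Figure D5:**
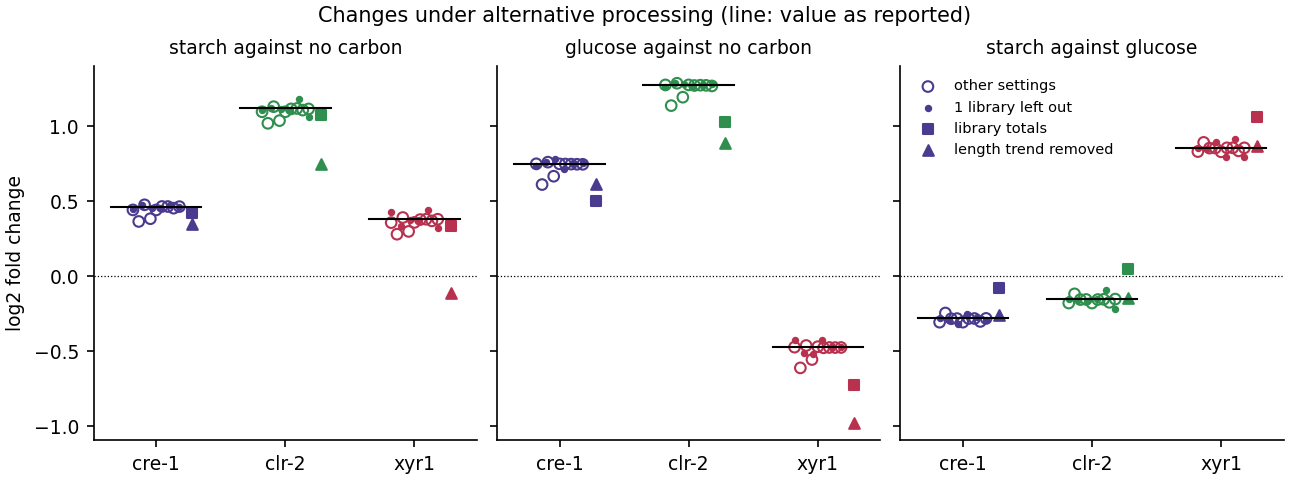
Log2 fold changes (vertical axis) of the 3 regulators in the 3 comparisons under the 17 alternative settings: circles for other tools, scalings, filters and designs, dots for fits without 1 library, squares for library totals and triangles for the removed length trend; black lines give the values as reported. Only clr-2 between starch and glucose (0.05 with library totals) and xyr1 between starch and no carbon (-0.11 with the length trend removed) cross 0.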

How the data were processed

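The members and gene lists were chosen with earlier results of these data known. The authors deposited raw read counts and RPKM per gene. Per the submitters' processing notes, the tools included TopHat2 2.0.8b and HTSeq 0.5.4p2. Build, annotation and strand setting were not given in the sources. The deposited RPKM were the deposited counts divided by library total and gene length (100% of 8989 implied lengths whole within 0.001 bases) and supplied only the lengths used for TPM. No member overlaps another gene in the RefSeq assembly GCF_000226095.1, to which 9087 of 9110 IDs matched by locus tag.

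Counts were tested in R 4.3.3 with edgeR 4.0.16 (filterByExpr, 8718 genes; TMM; robust glmQLFit on 6 libraries without covariates, 3 residual degrees of freedom; glmTreat at log2 1). Standard errors are the log2 fold change over the square root of F. Tests and intervals also borrowed spread from all genes, with a median of 42.5 prior degrees of freedom. The fit was tested on counts simulated from its own estimates, with most genes equal between media and no length trend. It is therefore no check of the scaling or of that trend in these data. Alternatives were DESeq2 1.42.0, limma-voom 3.58.1, other scalings and filters, the non-robust fit, fits on 2 media, the replicate number as a block, loess removal of the length trend (span 0.5), and each library left out. Named genes were the members, their 3 closest profiles, the annotated genes with a symbol and the nearest measured genes on either side. Lists resting on protein or promoter sequences were not run here.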

Additional observations from a re-analysis of the deposited data

How the results depend on the processing

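Over 17 alternatives the regulators gave 153 fold changes, of which 151 kept their direction and their side of the threshold. The exceptions were clr-2 between starch and glucose with library totals (0.0502) and xyr1 between starch and no carbon with the length trend removed (-0.11). For the test of more than 2-fold, tried under 15 edgeR alternatives chosen after the data were seen, clr-2 between glucose and no carbon passed in 12 and failed with upper quartile scaling (1.136), library totals (1.024) and the length trend removed (0.8891). Leaving out a library changed no call of a regulator. The lone library of a medium was then assumed to vary like the other media. Numbers of called genes stayed within 1.5 times, at 7200 to 7911 between starch and no carbon, 5113 to 6512 between starch and glucose, and 7206 to 7955 between glucose and no carbon.

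The replicate numbers were not taken as pairs, because nothing in the labels says that a number marks a shared culture or day. Same-numbered replicates also did not deviate together (correlations of 0.0077, -0.061 and -0.078 between media). With the replicate number as a block, the log2 fold changes between starch and glucose were -0.28 for cre-1, -0.15 for clr-2 and 0.85 for xyr1, and 6044 genes were called. No call of a regulator changed.

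Among other named genes the sign turned in 9 of 1064 values, a call was lost in 15 and gained in 13 (sign changes included), and the cause was not tested. Of the profiles closest to cre-1, Mycth_2302243 and Mycth_74487 lost the call between starch and glucose with library totals and that between starch and no carbon with the length trend removed. With library totals, starch against glucose became 0.023 for Mycth_2138951, 0.11 for Mycth_2114693 and 0.061 for Mycth_2079474, and glucose against no carbon became -0.16 for Mycth_2310081, where upper quartile scaling gave -0.0472. Starch against no carbon became -0.015 for Mycth_2310088 with upper quartile scaling, and 0.010 without a filter for Mycth_59946, which ran from -0.0215 to 0.027 with either starch library left out and was called with upper quartile scaling (-0.10, adjusted p = 0.0307, edgeR) and with the length trend removed (-0.37). Starch against glucose became -0.0421 for Mycth_2112717 without glucose replicate 1 and 3.15 without replicate 2. All 302 values of the genes with a symbol kept direction and call. Among the regulators clr-2 had the fewest reads (254 to 616 per medium) and the largest standard errors.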

Other observations

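The surroundings of the regulators in the genome were described from the order of genes in the RefSeq assembly. The genes cre-1 and xyr1 lie on the same chromosome with 26 protein-coding genes between them. The nearest annotated genes on either side of cre-1 are transfer RNA genes, which were not analysed here, so the nearest measured genes were taken. Mycth_2310081 had 570 ± 8.91 CPM without carbon, 606 ± 4.21 on glucose and 511 ± 3.66 on starch (mean ± SD, n = 2 here and below). Mycth_2310088 on the other side had 62.6 ± 2.74 CPM without carbon, 78.7 ± 2.48 on glucose and 66.5 ± 1.63 on starch. Both were lower on starch than on glucose, by a log2 fold change of -0.25 for the first (adjusted p = 8.08e-14, edgeR) and -0.24 for the second (adjusted p = 2.06e-05), beside the -0.28 of cre-1. Such falls were common, as 32.5% of tested genes were called lower on starch than on glucose. A still lower log2 fold change was found in 27% of tested genes for the first and 27.2% for the second. With library totals the call of neither neighbour held, at -0.0408 and -0.0389.

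Beside clr-2, Mycth_2298752 went from 22.7 ± 0.331 CPM without carbon to 3.50 ± 0.223 on glucose and 4.82 ± 0.126 on starch, a fall where clr-2 rose. With the length trend removed, its log2 fold change against no carbon was -1.61 on glucose and -1.25 on starch, in place of -2.69 and -2.23. On the other side Mycth_59946 had 87.4 ± 0.419 CPM without carbon, 66.6 ± 1.26 on glucose and 87.3 ± 2.15 on starch. With the length trend removed it was lower than without carbon on both, by a log2 fold change of -0.37 on starch (adjusted p = 1.19e-10, edgeR) and -0.76 on glucose (adjusted p = 6.73e-21). Beside xyr1, Mycth_2310143 rose from 0.787 ± 0.0905 CPM without carbon to 9.18 ± 0.243 on glucose and 9.87 ± 0.912 on starch. Its rise on glucose was 11.7-fold (adjusted p = 3.01e-20, edgeR), on 17 and 16 reads in the starved libraries, while xyr1 was lower on glucose than without carbon. Mycth_2112717 on the other side had only 52 and 37 reads in the starved libraries, against 1 and 12 on glucose and 12 and 14 on starch.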
